A study of Mus musculus with 4 samples.

Results

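Chemokine transcripts of a mesenchymal cell line were examined for their levels with and without bone morphogenetic protein 3 (BMP3). The genes were 8 listed by symbol, Cxcl1, Cxcl2, Cxcl5, Cxcl10, Cxcl12, Ccl2, Ccl7 and Ccl20, and every probe set annotated to one of these symbols alone was taken, which gave 12 of the 45037 probe sets tested and all 8 of the listed genes. A probe set is a group of short oligonucleotides on an Affymetrix array that together measure a transcript. The cells were C3H10T1/2, an established mouse embryonic line labelled as mesenchymal stem cells. The 2 control samples were not treated, and the 2 BMP3 samples were given 100 ng/ml of the recombinant human protein, with total RNA prepared after 6 hours. The labels name no other agent and no genetic change for either group. The arrays are called biological replicates by their titles, with nothing on whether the cultures were grown on separate days, so the p-values measure the spread between these cultures only.

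Chemokines are small secreted proteins that guide migrating cells through G protein-coupled receptors. They are classed by the spacing of their first cysteines into CXC and CC families. Cxcl1, Cxcl2 and Cxcl5 carry a glutamate-leucine-arginine motif before the first cysteine and attract neutrophils through the receptor Cxcr2. Cxcl10 lacks that motif, is induced by interferon and attracts T cells through Cxcr3. Cxcl12 is produced constitutively by stromal cells and retains haematopoietic cells through Cxcr4. Ccl2 and Ccl7 attract monocytes through Ccr2, and Ccl20 attracts Ccr6-bearing lymphocytes and dendritic cells. Mesenchymal cells are a main source of several of these ligands, and many of their genes are induced by the transcription factor NF-kappaB. BMP3 belongs to the TGF-beta superfamily of secreted factors and is known to oppose bone formation.

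Upstream sequences are shown for 4 of the genes. Cxcl1, bright on these arrays, and Cxcl2, dim on them, are neighbouring genes with the same NF-kappaB element. The others are the interferon-type gene Cxcl10 and the constitutive gene Cxcl12. Of the 8 genes, 5 had an entry in the RefSeq promoter table (build GRCm38.p6). Cxcl5, Ccl2 and Ccl7 had none, so the sequences do not stand for all the results. Each sequence is the 250 bases before the annotated start, 5′ to 3′. Capitals mark matches to the kappaB consensus and, in Cxcl10, also the interferon response element core GAAANNGAA. In Cxcl12 they mark the GC box GGGCGG. Motifs were searched on both strands, and overlapping matches were counted. The intervals are chr5:90890995-90891244, plus strand for Cxcl1, chr5:90903649-90903898, plus strand for Cxcl2, chr5:92348890-92349139, minus strand for Cxcl10 and chr6:117168285-117168534, plus strand for Cxcl12.
Cxcl1: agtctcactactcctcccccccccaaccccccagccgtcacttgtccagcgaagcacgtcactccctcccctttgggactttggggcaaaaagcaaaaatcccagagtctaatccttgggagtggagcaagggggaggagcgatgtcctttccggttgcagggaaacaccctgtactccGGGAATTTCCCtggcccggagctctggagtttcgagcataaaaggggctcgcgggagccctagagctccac
Cxcl2: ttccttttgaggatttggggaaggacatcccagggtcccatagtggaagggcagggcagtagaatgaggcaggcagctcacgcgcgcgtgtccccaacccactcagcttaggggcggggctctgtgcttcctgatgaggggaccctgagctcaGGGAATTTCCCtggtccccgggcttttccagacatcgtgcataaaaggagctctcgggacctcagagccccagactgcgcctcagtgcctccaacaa
Cxcl10: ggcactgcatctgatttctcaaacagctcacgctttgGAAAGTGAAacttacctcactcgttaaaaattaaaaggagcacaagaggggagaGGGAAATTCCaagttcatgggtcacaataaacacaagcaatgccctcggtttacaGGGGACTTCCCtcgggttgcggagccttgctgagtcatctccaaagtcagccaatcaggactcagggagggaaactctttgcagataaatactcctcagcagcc
Cxcl12: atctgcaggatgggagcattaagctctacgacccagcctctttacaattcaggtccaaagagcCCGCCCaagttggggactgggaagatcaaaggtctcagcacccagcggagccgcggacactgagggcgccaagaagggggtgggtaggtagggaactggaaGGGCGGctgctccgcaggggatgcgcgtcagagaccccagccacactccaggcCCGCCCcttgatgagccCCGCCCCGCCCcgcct

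The run GGGAATTTCCC, formed by overlapping kappaB matches, lies at bases -71 to -61 of Cxcl1 and at bases -97 to -87 of Cxcl2, counted from the annotated start. Cxcl3, a gene of the same cluster, holds it at bases -73 to -63. This run occurs in 14 of the 32851 upstream windows in the table (0.0426%), while any kappaB match occurs in 7.25% of them. Cxcl10 had kappaB matches at bases -159 to -150 and -104 to -94 and an interferon response element core at bases -213 to -205, a core that 7.13% of all windows hold. Ccl20 had a kappaB match at bases -80 to -71. Cxcl12 had no kappaB match in this window and 5 GC box matches, of which the last pair share a base, and 32.7% of windows hold at least 1 GC box. These matches are descriptions of letters and not of binding.

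The values were read as log2 intensities, with the scale inferred from their range. A probe set was treated as dim where its mean over the 4 arrays was under 6. Array medians ran from 3.31 to 3.40, and 37.7% to 38.6% of probe sets on an array reached 6. No probe set in the table passed an adjusted p of 0.05 by limma with Benjamini-Hochberg adjustment (0%), and 3779 (8.39%) had an unadjusted p under 0.05. The words higher and lower below therefore describe measured values and not called changes. The number of arrays limits every error given, and an exact permutation test of 2 arrays against 2 cannot go below a two-sided p of 0.333. Markers of the labelled cell type were present, with 11 of 12 measured mesenchymal markers averaging 6 or more. Of these 11, 4 were higher and 7 lower on BMP3 arrays, and 2 met the looser rule defined below, both higher, where 2% of all genes at that level did. Thy1, a surface glycoprotein of stromal cells, differed by 0.73 (SE 0.10, limma adjusted p = 0.301), and Cd44, the hyaluronan receptor, by 0.64 (SE 0.19). Eng, a TGF-beta co-receptor, differed by 0.47 (SE 0.15) and Col1a2, a collagen chain, by 0.12 (SE 0.04). The other Col1a2 probe sets, both averaging 6 or more, differed by -0.04 and -0.16. These 4 genes were the higher ones at their brightest probe sets. Among the 7 lower ones, Pdgfra differed by -0.73 (SE 0.52) with overlapping groups. The median of the 11 was -0.07. The part of these marker differences in the chemokine results was not tested. Nt5e, a surface enzyme used to define mesenchymal stem cells, read at most 2.57 at its brightest probe set. Of the control probes, the poly-A spike-ins, bacterial transcripts added to the RNA before labelling, had lower means in BMP3 than in control arrays. Dap averaged 8.99 against 10.12, Phe 6.54 against 7.55, Lys 6.24 against 6.97 and Thr 5.43 against 5.91, while hybridization spike-ins averaged 11.55 against 11.59. Probes for 18S ribosomal RNA averaged 9.45 against 10.96. The part of these control probes in the chemokine results was not tested either.

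Of the 8 chemokine genes, 5 averaged 6 or more at their brightest probe set, and the other 3 were dim on all 4 arrays. Among the 5, the neutrophil chemokines Cxcl5 and Cxcl1 had lower values on BMP3 arrays, with log2 differences of -1.85 and -1.504, and the monocyte chemokine Ccl2 was 1.05 higher. Cxcl12 was 0.37 lower, and Ccl7 differed by less than its spread between replicates. Differences are BMP3 minus control throughout. No chemokine probe set passed the adjusted threshold. Under a looser rule, a fold of 1.5 or more together with an unadjusted p below 0.05, Cxcl5 and Cxcl1 were counted lower (2 of 5, where 2.83% of the 9185 genes averaging 6 or more were) and none higher (background 2%). The arrays of the groups did not overlap for 3 of the 5 genes in the lower direction (background 21.7%) and for 1 in the higher direction (background 26.1%). For Cxcl12, among these 3, the nearest arrays read 13.982 and 13.984, and its second probe set had overlapping groups. A log2 difference of at least 1 in size was seen for 3 of the 5, against 2.3% of those 9185 genes. The median difference of the 5 was -0.37, against 0.02 over the 9185 genes. The chemokines, and the lists below, were chosen with earlier results of these data known. Counts set beside a background therefore describe the values and are no test.

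**Figure D1:**
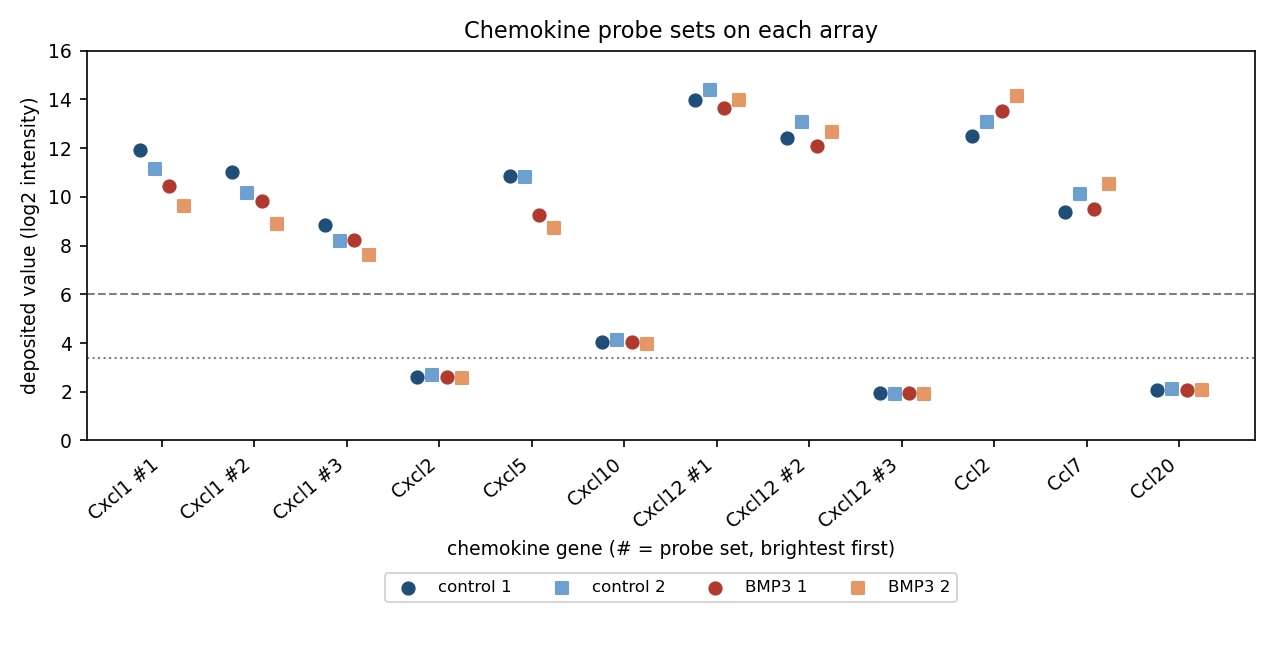
Deposited log2 intensity (vertical axis) of each chemokine probe set (horizontal axis) on the 2 control and 2 BMP3 arrays, 1 point per array, with the dashed line at 6 and the dotted line at the highest array median, 3.40. Cxcl5 stands at 10.86 and 10.82 on control arrays against 9.27 and 8.71 on BMP3 arrays, while Cxcl2, Cxcl10, Ccl20 and the dimmest Cxcl12 probe set lie under 6. Levels of different probe sets are not comparable.

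Cxcl5 encodes a neutrophil attractant of the CXC family, and its gene opens the cluster on mouse chromosome 5 that also holds Cxcl1 and Cxcl2. Its single probe set (1419728_at) read 10.86 and 10.82 on the control arrays and 9.27 and 8.71 on the BMP3 arrays. Both BMP3 arrays were below both control arrays, and the control arrays lay closer to each other than the BMP3 arrays did. The means were 10.84 ± 0.02 and 8.99 ± 0.40 (SD, n = 2 each). This is a log2 difference of -1.85 (SE 0.23, 95% interval from -2.54 to -1.15), so that the level was 3.60 times as high in control as in BMP3 arrays. The limma adjusted p was 0.292 (unadjusted p = 0.00307 from the fit across all probe sets). With each array left out in turn the difference ran from -2.13 to -1.57. Each such fit, here and for the genes below, leaves 1 array in a group and takes its replicate spread from the other group alone. Whether such a fit meets the looser rule defined above is therefore a weak guide. In bulk RNA, fewer cells that make a transcript and less of it per cell cannot be told apart, here and for every gene below.

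Cxcl1, the neutrophil chemokine also known as KC, had 3 probe sets. The brightest (1419209_at) read 11.92 and 11.15 on control arrays against 10.45 and 9.61 on BMP3 arrays. Its groups did not overlap, though the replicates of each group lay apart by about as much as the groups' nearest arrays. The means were 11.53 ± 0.54 and 10.03 ± 0.60 (SD, n = 2 each). The difference was -1.504 (SE 0.45, 95% interval from -2.90 to -0.11, limma adjusted p = 0.558), a level 2.84 times as high in control. The next (1457644_s_at), whose suffix marks probes shared by several transcripts, read 11.01 and 10.16 on control arrays against 9.83 and 8.88 on BMP3 arrays, a difference of -1.23 (SE 0.50). The dimmest (1441855_x_at), whose suffix marks probes that may cross-hybridise, read 8.84 and 8.21 on control arrays against 8.24 and 7.62 on BMP3 arrays, and there control replicate 2 lay under BMP3 replicate 1. Its difference was -0.59 (SE 0.35). With 1 array left out, the difference of the second ran from -1.70 to -0.76 and that of the dimmest from -0.91 to -0.28. All 3 probe sets had lower means on BMP3 arrays, by unequal amounts. The looser call of the brightest was kept when BMP3 replicate 1 was left out (-1.93). It was lost on leaving out control replicate 1 (-1.12), control replicate 2 (-1.89) or BMP3 replicate 2 (-1.08). With all probe sets of the gene averaged the difference was -1.11, and the looser call was lost.

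Cxcl2, the close relative and chromosomal neighbour of Cxcl1, was dim. Its probe set (1449984_at) read 2.59 and 2.68 on control arrays against 2.61 and 2.57 on BMP3 arrays, lower than every array median, with overlapping groups. The other genes between Cxcl5 and Cxcl2 in the GRCm38.p6 annotation were, in order, Ppbp, Pf4, Cxcl3 and Cxcl15, followed by Cxcl1. Each of these 4 was dim, the highest value being 3.50 for Cxcl3. Cxcl3, which shares the kappaB run printed above with Cxcl1 and Cxcl2, read 3.36 and 3.50 on control arrays against 3.47 and 3.37 on BMP3 arrays. In this row of neighbouring genes, from Cxcl5 to Cxcl2, Cxcl5 and Cxcl1 alone averaged 6 or more. The levels of dim probe sets have no interpretable difference.

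Ccl2, also known as MCP-1, is the main monocyte attractant of stromal cells. Its probe set (1420380_at) read 12.50 and 13.09 on control arrays against 13.53 and 14.16 on BMP3 arrays. Both BMP3 arrays were above both control arrays, by 0.44 at the nearest pair. The means were 12.79 ± 0.41 and 13.85 ± 0.45 (SD, n = 2 each), a difference of 1.05 (SE 0.34, 95% interval from -0.01 to 2.11, limma adjusted p = 0.598), and the level was 2.07 times as high in BMP3 as in control arrays. Its unadjusted p, 0.0509 from the fit across all probe sets, missed the looser rule. Leaving out each array gave 0.74 to 1.37, the latter without BMP3 replicate 1. The looser rule was met in 4 of 9 other alternatives, which were the replicate block, the filter at 6, the prior trend and averaged probe sets. Ccl2 has a single probe set, so averaging left its values unchanged and altered only the fit across genes.

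Ccl7, or MCP-3, lies beside Ccl2 on mouse chromosome 11 and binds some of the same receptors. Its probe set (1421228_at) read 9.38 and 10.10 on control arrays against 9.52 and 10.51 on BMP3 arrays. The groups overlapped, because replicate 1 of each group lay under replicate 2 of the other. The means were 9.74 ± 0.51 and 10.02 ± 0.70 (SD, n = 2 each), and the difference of 0.28 (SE 0.49, 95% interval from -1.23 to 1.79) was smaller than either standard deviation. It turned to -0.09 without control replicate 1 and to -0.22 without BMP3 replicate 2. The next genes of this cluster, Ccl11, Ccl12, Ccl8 and Ccl1, were dim, the highest value being 3.42 for Ccl11. Ccl20, the ligand of Ccr6 (1422029_at), was dim as well, at 2.09 and 2.10 on control arrays against 2.08 and 2.06 on BMP3 arrays.

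Cxcl12, which encodes stromal cell-derived factor 1, had 3 probe sets. The brightest (1448823_at) read 13.98 and 14.39 on control arrays against 13.65 and 13.98 on BMP3 arrays. BMP3 replicate 2, at 13.982, lay just below control replicate 1, at 13.984, so the groups touched. The difference was -0.37 (SE 0.21, 95% interval from -1.01 to 0.28, limma adjusted p = 0.847). The second (1417574_at) read 12.43 and 13.08 on control arrays against 12.10 and 12.65 on BMP3 arrays, a difference of -0.38 (SE 0.34) with overlapping groups, which became -0.05 on leaving out control replicate 2 and -0.71 on leaving out control replicate 1. The third (1439084_at) read between 1.91 and 1.96, lower than every array median. Without control replicate 2 the difference of the brightest was -0.17, and without control replicate 1 it was -0.57.

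Cxcl10, the interferon-inducible ligand of Cxcr3 (1418930_at), read 4.03 and 4.12 on control arrays against 4.05 and 3.97 on BMP3 arrays. It lay above the array medians but under 6, and the groups overlapped. Its difference was -0.06 (SE 0.06, 95% interval from -0.24 to 0.12), a range that holds only for a probe set this dim. Cxcl9 and Cxcl11, the other ligands of Cxcr3, were dim, the highest value being 3.49 for Cxcl11.

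**Figure D2:**
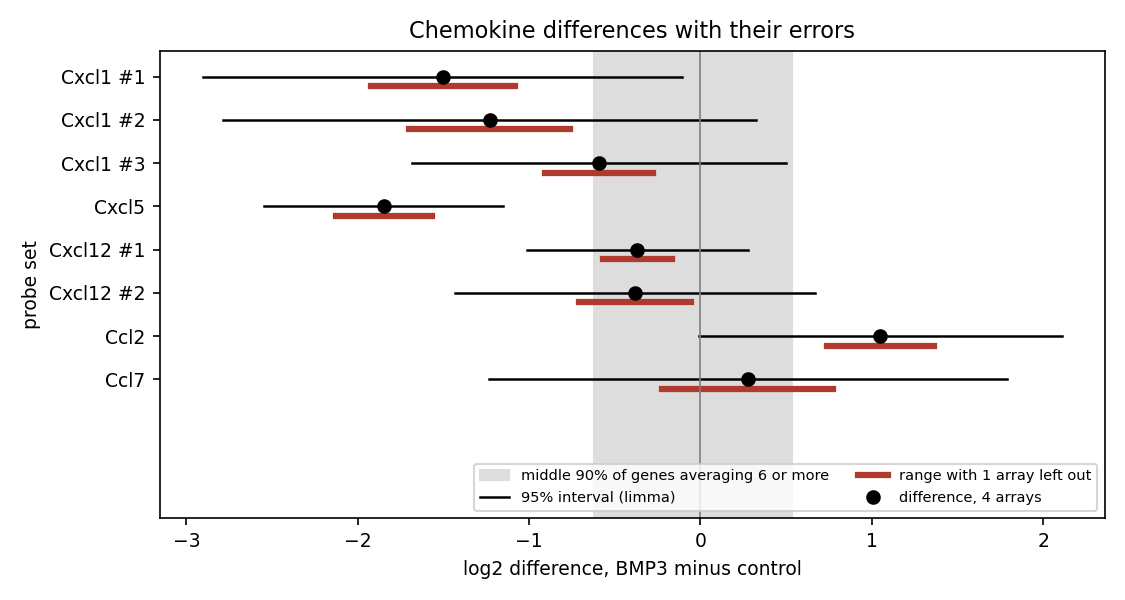
Log2 difference, BMP3 minus control (horizontal axis), of the 8 chemokine probe sets averaging 6 or more (vertical axis), with points for the fit of 4 arrays, black lines for 95% limma intervals, red bars for the range when 1 array is left out, and a grey band that leaves out equal tails of 9185 genes (-0.62 to 0.53). The Cxcl5 interval runs from -2.54 to -1.15 and lies wholly below the band, and the Ccl7 bar crosses 0.

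The direction of the CC and CXC ligands was compared within each array, where any scaling of the whole array cancels. The log2 difference between the Ccl2 and Cxcl5 probe sets, set to a mean of 0 over the control arrays, was -0.31 and 0.31 on control arrays against 2.30 and 3.50 on BMP3 arrays. That between Ccl2 and Cxcl1 was -0.68 and 0.68 on control arrays against 1.82 and 3.29 on BMP3 arrays. In both pairs, each BMP3 array stood above each control array, with shifts of 2.90 and 2.56 between the group means. An exact permutation test over arrays gave a two-sided p of 0.333 for each, the smallest this design can give. Ccl7 against Cxcl5 shifted by 2.13, and Ccl7 against Cxcl1 by 1.78, the latter with control replicate 2 at 0.75 close to BMP3 replicate 1 at 0.86. Between the neutrophil chemokines themselves, Cxcl1 minus Cxcl5 shifted by 0.34 (exact permutation p = 0.667), less than its spread over the control arrays. Pairs within a family also shifted: Ccl2 minus Ccl7 by 0.77, with both BMP3 arrays (0.96 and 0.59) above both control arrays (0.07 and -0.07, exact permutation p = 0.333), and Cxcl12 minus Cxcl1 by 1.14 with overlapping groups (exact permutation p = 0.667). Unequal change was thus not limited to CC against CXC pairs. The pairs share probe sets and were chosen with the differences known, so they describe unequal change and add no independent test.

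**Figure D3:**
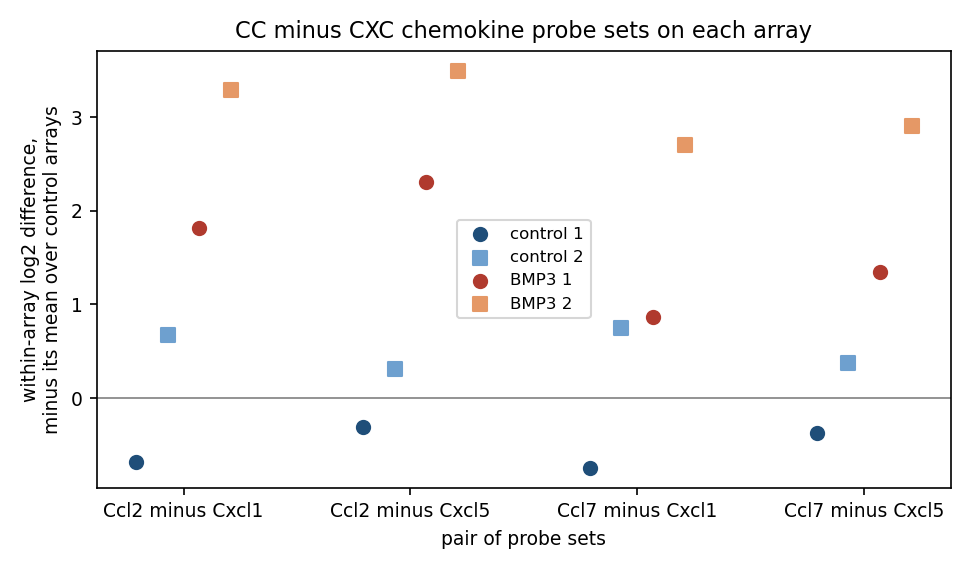
Within-array log2 difference between a CC and a CXC chemokine probe set (vertical axis), minus its mean over the control arrays, for 4 pairs (horizontal axis), 1 point per array. The BMP3 arrays stand above the control arrays in each pair, from 1.82 to 3.50 for the Ccl2 pairs, and control replicate 2 and BMP3 replicate 1 nearly touch for Ccl7 minus Cxcl1.

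Of 30 other chemokine genes, 27 had a probe set of their own and 3 are not analysed here. Only 4 of the 27, Ccl5, Ccl9, Ccl25 and Cx3cl1, averaged 6 or more. Under the looser rule 2 of these 4 were higher and 1 lower, against 2% and 2.83% of all genes averaging 6 or more. Ccl5, a T cell and monocyte attractant, read 7.63 and 7.21 on control arrays against 6.42 and 6.44 on BMP3 arrays (difference -0.99, SE 0.17, limma adjusted p = 0.350). Cx3cl1, the membrane-anchored chemokine fractalkine, read 9.72 and 9.32 on control arrays against 10.81 and 10.24 on BMP3 arrays (difference 1.01, SE 0.28), but its second probe set, near 6, differed by 0.08. Ccl9, a myeloid attractant, read 10.00 and 10.32 on control arrays against 10.70 and 11.19 on BMP3 arrays (difference 0.79, SE 0.23), and its other probe set differed by 0.48 (SE 0.32). Ccl25, which attracts thymocytes, differed by 0.16 (SE 0.09). CC ligands with measured values thus lay on both sides of 0, with Ccl5 lower and Ccl2 and Ccl9 higher.

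Receptors for these ligands were mostly dim. Of 21 receptor genes with a probe set, the scavenging receptors Ackr3 and Ackr4 averaged 6 or more, and 0 genes met the looser rule. Among all genes averaging 6 or more, 2% were higher by that rule and 2.83% lower, so a count of 0 lies near these shares. Cxcr2, Cxcr4 and Cxcr3, the signalling receptors of Cxcl1, Cxcl12 and Cxcl10, were dim, the highest value being 2.43 for Cxcr4. Ccr2, the receptor of Ccl2 and Ccl7, was under 6 but above the array medians. It read 4.09 and 4.79 on control arrays against 4.76 and 4.83 on BMP3 arrays, with overlapping groups. Ackr3, which takes up Cxcl12 without G protein signalling, read 11.41 and 12.34 on control arrays against 10.93 and 12.14 on BMP3 arrays. Its groups overlapped, and replicate 2 lay above replicate 1 in each. Its difference was -0.34 (SE 0.61, 95% interval from -2.22 to 1.53). Ackr4, which takes up CC ligands such as Ccl25, differed by 0.04 (SE 0.40) at its brightest probe set and by -0.07 at the next, while a further one averaged 2.10.

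NF-kappaB subunits and their inhibitors were measured for 14 of 16 listed genes, of which 12 averaged 6 or more, 9 of them higher and 3 lower in BMP3 arrays, where 4899 of all 9185 genes at that level were higher and 4286 lower. Their median difference was 0.19, and it was 0.39 without BMP3 replicate 1. Under the looser rule Nfkb2 and Relb were higher and Bcl3 lower (2 and 1 of 12, against 2% and 2.83% of all such genes). Nfkb2, the precursor of the p52 subunit, read 9.11 and 8.96 on control arrays against 9.98 and 10.06 on BMP3 arrays (difference 0.99, SE 0.07, limma adjusted p = 0.222), while its other probe set differed by 0.35 (SE 0.09). Relb, the partner of p52, read 7.84 and 8.05 against 8.47 and 8.77 (difference 0.68, SE 0.15), and Rela, the p65 subunit, differed by 0.44 (SE 0.09). Bcl3, a nuclear partner of p50 and p52, read 7.12 and 7.45 on control arrays against 6.21 and 6.63 on BMP3 arrays (difference -0.86, SE 0.21). Nfkbiz encodes another nuclear cofactor and was chosen after its values were seen. It read 12.60 and 12.02 on control arrays against 11.72 and 11.03 on BMP3 arrays, a difference of -0.94 (SE 0.36) at its brightest probe set. Nfkbie, an inhibitor gene chosen in the same way, read 9.78 and 10.41 on control arrays against 10.50 and 11.17 on BMP3 arrays, a difference of 0.74 (SE 0.37). The groups did not overlap for either gene. Of the 12, groups did not overlap for 5 in the higher direction (background 26.1%) and for 2 in the lower direction (background 21.7%). The inhibitor gene Nfkbia differed by 0.16 (SE 0.18), with its 5 probe sets between 0.16 and 0.48, and Tnfaip3, which ends NF-kappaB signalling, by 0.76 (SE 0.62) with overlapping groups.

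Among 16 other NF-kappaB target genes, 7 averaged 6 or more and 1 met the looser rule, in the lower direction (background 2.83%). Ptx3, a soluble pattern recognition protein, read 13.85 and 14.61 on control arrays against 12.29 and 13.12 on BMP3 arrays (difference -1.53, SE 0.45). Its other probe set averaged 5.96, just under 6, and read 6.47 and 7.09 on control arrays against 4.78 and 5.48 on BMP3 arrays. Ptgs2, which encodes cyclooxygenase-2, differed by 0.16 (SE 0.08), Birc3 by 0.12 (SE 0.04) and Tnfaip2 by 0.57 (SE 0.51). Il6 and Icam1 were dim, with highest values of 4.33 and 2.08. The median of the 7 was 0.12, and Ptx3 was the one that met the rule. Among 21 upstream ligands and receptors, 13 averaged 6 or more and 0 met the looser rule (background 2% higher and 2.83% lower). For a list of 13 genes a count of 0 lies near these shares. The ligands Tnf, Il1a and Il1b were dim, the highest value being 2.78 for Il1b. Tlr2, a receptor of bacterial lipoproteins, read 7.45 and 6.80 on control arrays against 6.40 and 6.33 on BMP3 arrays (difference -0.76, SE 0.26), Tnfrsf1b differed by 0.42 (SE 0.17), Ifngr2 by 0.30 (SE 0.21) and Ifnar2 by -0.21 (SE 0.05).

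Interferon targets, which Cxcl10 belongs with by its regulation, had 7 of 11 measured genes at 6 or more, 6 lower and 1 higher, with a median of -0.62 and 3 under the looser rule, all lower. Of all 9185 genes at that level, 4286 were lower and 2.83% were lower by the looser rule. Bst2, an antiviral membrane protein, read 9.96 and 9.67 on control arrays against 8.72 and 8.81 on BMP3 arrays (difference -1.05, SE 0.12). Gbp2, a guanylate-binding protein, differed by -0.62 (SE 0.14) and Irf9, a subunit of the interferon-activated transcription factor, by -0.66 (SE 0.19). Ifit3 differed by -1.04 (SE 0.64) with overlapping groups. Cxcl10, being dim, gives no value to set beside these genes. Of 7 regulators of the decay of AU-rich mRNAs, a class to which several chemokine mRNAs belong, all averaged 6 or more and 1 met the looser rule, in the lower direction (background 2.83%). Zfp36l1, which promotes such decay, read 13.45 and 13.18 on control arrays against 12.73 and 12.47 on BMP3 arrays (difference -0.71, SE 0.16). Elavl1, a stabilising protein, differed by 0.44 (SE 0.10), although its other probe sets averaging 6 or more differed by 0.11 and -0.18. Khsrp differed by 0.19 (SE 0.04), and its other probe sets by 0.44 and 0.32. Hnrnpd differed by 0.13 (SE 0.05), but its second probe set, also averaging 6 or more, by -0.04 with overlapping groups. Zfp36, the founding decay factor, differed by -0.18 (SE 0.07).

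**Figure D4:**
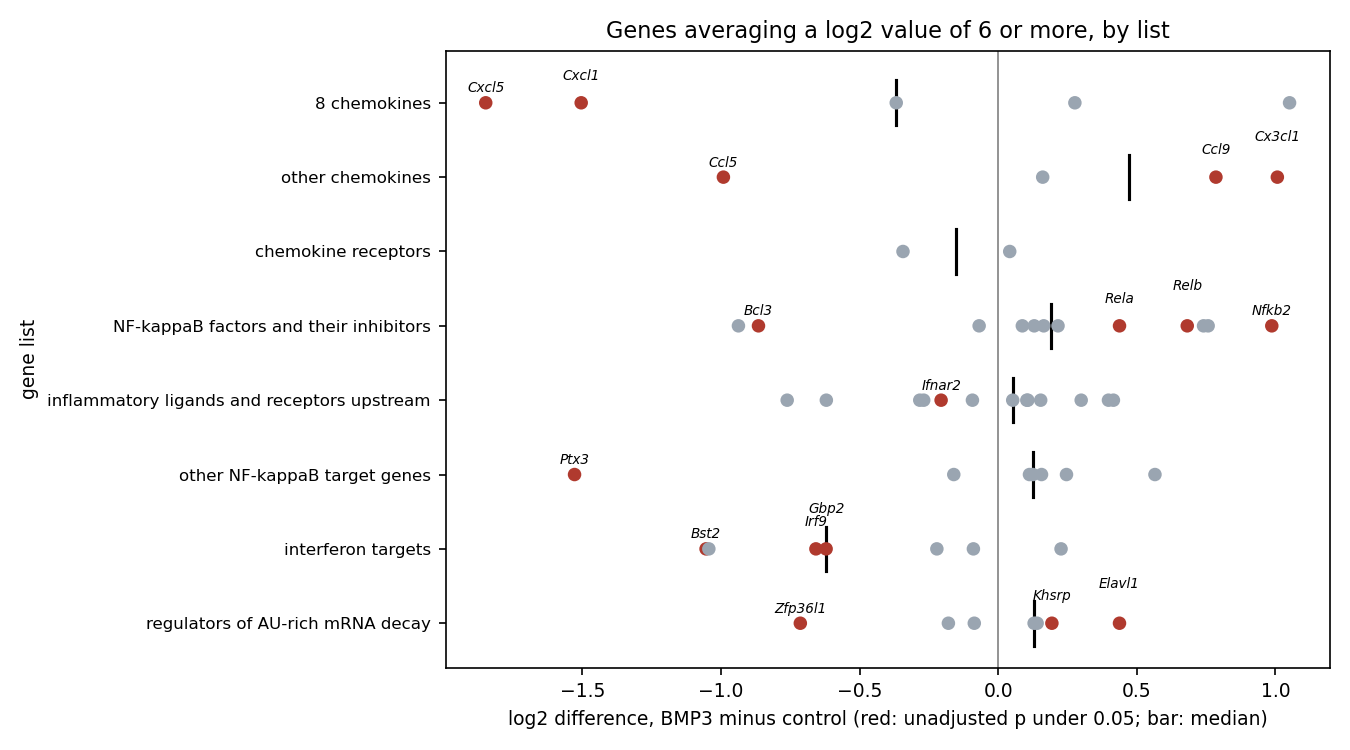
Log2 difference, BMP3 minus control (horizontal axis), of every gene averaging 6 or more in each list (vertical axis), 1 point per gene at its brightest probe set, red where the unadjusted limma p was under 0.05 and with a bar at the list median. Cxcl5 at -1.85 and Cxcl1 at -1.504 lie lowest among the 8 chemokines, Ptx3 lies at -1.53, and Nfkb2 at 0.99 lies highest among NF-kappaB factors.

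Genes with array profiles most like those of each chemokine were ranked by the Euclidean distance between log2 values centred on the mean of the 4 arrays, among genes averaging 6 or more. Over only 4 arrays such likeness is a description and says nothing of shared control. For Cxcl5 the nearest were Hykk (distance 0.11), Emb (0.27) and Hgf (0.30). For Cxcl1 they were Lmo7 (0.18), Bdh2 (0.21) and N4bp2l1 (0.21), and for Ccl2 they were Loxl4 (0.09), Tes (0.12) and Bcat1 (0.14). Those of Ccl7 were Msrb3 (0.09), Garre1 (0.09) and Ndufaf4 (0.10), and those of Cxcl12 were Osgin2 (0.05), Chd9 (0.05) and Plekho1 (0.06). Hgf, hepatocyte growth factor, read 11.72 and 11.58 on control arrays against 10.25 and 9.87 on BMP3 arrays. Its likeness to Cxcl5 on these arrays follows from the ranking by distance and is no separate result.

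Leukocytes and endothelial cells also make these chemokines, so their markers were read on the same arrays. Of 11 macrophage markers only Cd14, which fibroblasts also express, averaged 6 or more, and it read 8.54 and 7.43 on control arrays against 8.86 and 7.49 on BMP3 arrays. The macrophage list summed to 36.5 to 37.5 in control and 37.3 to 38.1 in BMP3 arrays. The defining markers Ptprc, Itgam and Spi1 were dim, the highest value being 2.55 for Ptprc. None of 6 lymphocyte and 8 endothelial markers averaged 6, with list sums of 16.4 to 16.7 in control and 16.6 to 16.7 in BMP3 arrays for lymphocytes and 15.88 to 16.01 and 15.73 to 16.03 for endothelium. Of 5 epithelial markers, Epcam averaged 9.51 at its brightest probe set and 2.32 at its other one, and the list summed to 20.7 to 21.1 in control and 20.5 to 20.8 in BMP3 arrays.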

How the data were processed

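RNA of 2 control and 2 BMP3 samples was hybridised to 4 Affymetrix 3' arrays. The value table deposited by the authors holds 1 value per probe set and array, read here as log2 from its range. The submitters' processing notes name Partek, with no version or step. How background, normalization and probe summary were handled is not given in the sources used here, and a scaling that equalises arrays would hide a shift of most transcripts. Values were used as deposited after 64 control probe sets were left out. Symbols came from the platform annotation, checked through Entrez identifiers (0 of 34741 changed). Probe sets with several symbols (932) or none (9160) named no gene.

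A limma model (version 3.58.1, R 4.3.3, moderated variances with 1.18 prior degrees of freedom) gave two-sided tests across 45037 probe sets with Benjamini-Hochberg adjustment. No term was fitted for replicate number, because nothing ties a number to a shared day. A gene of a list was represented by its brightest probe set. Named were all 8 chemokines, per list up to 4 genes of smallest p among those averaging 6 or more, and 10 genes whatever their value, where they had a probe set. Dim genes beside the chemokines on their chromosomes, dim ligands and receptors, Nt5e, Pdgfra, the leukocyte markers, Nfkbiz and Nfkbie were named outside this rule, after their values were seen. This model was checked on simulated data. The chemokines and lists were chosen with earlier results of these data known. Alternatives were leaving out each array, the replicate block, cyclic loess, median centring, quantile normalization, a filter at 6, a prior trend, an ordinary linear model, averaged probe sets, an offset of 16 and a 2-fold threshold.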

Additional observations from a re-analysis of the deposited data

How the results depend on the processing

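Over 101 refits of the 8 chemokine probe sets averaging 6 or more, 99 kept direction and stayed on the same side of the adjusted threshold. The exceptions were Ccl7 without control replicate 1 and without BMP3 replicate 2, with a range of -0.22 to 0.77 over arrays left out. The replicate block, the filter at 6, the prior trend and the ordinary linear model leave the difference itself unchanged. Direction could not turn in those refits, nor by averaging for genes with a single probe set. In 12 of 12 alternatives no probe set of the table passed the adjusted threshold. Of these, the 2-fold threshold does not enter the adjusted p, so its result there repeats the main fit. With the replicate block, 683 probe sets were higher and 1481 lower by the looser rule, against 364 and 901 without it. Replicates sharing a number deviated together (r = 0.60 across 17152 probe sets, which are not independent). The labels do not say what a number stands for, so the block is given here only. Under it the standard errors of Cxcl1 and Ccl2 were 0.06 and 0.06, and limma adjusted p was 0.136 for each, 0.140 for Cxcl5, 0.181 for Cxcl12 and 0.397 for Ccl7. BMP3 minus control within a number was -1.47 and -1.54 for Cxcl1, 1.03 and 1.07 for Ccl2 and -0.33 and -0.41 for Cxcl12. Looser counts with 1 array left out ran from 329 to 870 higher and from 742 to 1407 lower. They were 171 and 418 by an ordinary linear model and 82 and 344 at a 2-fold threshold. Medians with 1 array left out ran from 0.34 to 0.45 for other chemokines, 0.17 to 0.39 for NF-kappaB factors, -0.19 to 0.12 for upstream ligands and receptors, 0.0855 to 0.158 for other NF-kappaB targets and -0.0735 to 0.118 for decay regulators. The median of other chemokines was 0.54 under quantile normalization and 0.11 with probe sets averaged, that of other targets 0.16 under median centring and 0.0566 with probe sets averaged, and that of decay regulators 0.0053 with probe sets averaged. The cause of these shifts was not tested. The looser call of Cxcl1 was ended by median centring, an ordinary linear model, the offset and averaged probe sets. That of Cxcl5 held in 9 of 9 alternatives other than arrays left out, that of Cxcl1 in 5 of 9, and Ccl2 met the looser rule in 4 of 9.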
